A study of Mus musculus with 2 samples.

Results

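Meiotic prophase genes were followed in cultured mouse spermatogonia, cells that divide by mitosis and have not yet entered meiosis. The set was a named list of 32 genes, each present as a row in both feature tables of 32285 genes. RNA and a surface tag for KIT were read in single THY-1+ germ cells from C57 LacZ pups, cultured on mouse fibroblasts of the STO line. The labels give 9 to 12 passages, except that the source name of the FGF9-treated sample gives 9 to 13, and the study's methods name a single passage within that range. One culture was given 20 ng/ml FGF9 for 48 h (FGF9-treated, 1 library) and the other no FGF (control, 0 ng/ml, 1 library), and each library pooled cells of several mice. By the labels the growth medium of both held GDNF (20 ng/ml), FGF2 (1 ng/ml) and GFRA1 (150 ng/ml), whereas the study's methods describe a switch at the start of treatment to medium with FGF9 or albumin, and the study describes its control as lacking growth factors during the treatment.

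Cells were kept with at least 2000 genes, at most 20% mitochondrial UMIs (unique molecular identifiers, which count RNA molecules) and under 40 UMIs of the fibroblast genes Vim and S100a6 together. This left 4537 of 5959 FGF9-treated and 4157 of 5312 control barcodes, with a median of 13067 and 14824 UMIs per cell. The cells just outside the fibroblast limit, with 40 to 49 UMIs, were 2 in each library, and 0 cells in either had 30 to 39. The 63 FGF9-treated and 31 control cells over the limit are called feeder-like here. They served to gauge background, which may be free RNA or RNA of a germ cell under the same barcode. The germ cell genes Dazl (1823 CPM in FGF9-treated and 1729 CPM in control cells) and Ddx4 (426 and 437 CPM) were abundant in the kept cells. Of 7 spermatid genes, Prm1 and Prm2 had 0 UMIs in both libraries, which allows up to 0.0447 CPM in FGF9-treated and 0.0443 CPM in control cells. CPM are UMIs per 1000000 UMIs of the kept cells, and since the kit reads the 3' end, a gene's level was not divided by its length. With 1 library per treatment there is no test between treatments, and every interval given is a 95% interval of counting error only. In summed cells, fewer cells with a transcript and less transcript per cell cannot be told apart.

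In meiotic prophase, homologous chromosomes are cut by SPO11, pair and are joined by the synaptonemal complex, a protein zipper whose axes are built on meiotic cohesins, and a few of the breaks become crossovers. In male mice, retinoic acid induces Stra8, and STRA8 with its partner MEIOSIN raises the transcription of many of these genes at meiotic entry, while KIT appears somewhat earlier, on differentiating spermatogonia. In cells outside the germ line, many germ line genes with CpG-rich promoters are held silent by DNA methylation and by repressor complexes that contain E2F6 and the E-box binding factor MGA.

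Promoters are shown first because regulators of meiotic genes are known to act there. A RefSeq promoter (GRCm38.p6, 250 bases before to 50 bases after the start) was matched for 27 of the 32 genes, and the first one listed was read for each. An E2F-type stretch, GGCGGGAA on either strand, stood in 6 of the 27 (22.2%), against 2.24% of all 27025 promoters and 4.89% of the 9857 promoters with a CpG observed-over-expected ratio of 0.6 or more. The E-box CACGTG stood in 7 (25.9%), against 7.24% of all and 11.4% of the CpG-rich promoters. CNCCTCAG, the letters reported for STRA8-MEIOSIN binding, stood in 5 (18.5%), against 7.97% and 9.24%. Of the 27 promoters, 18 (66.7%) reached a CpG ratio of 0.6, against 36.5% of all promoters and 82.6% of the 6953 promoters whose genes had at least 10 CPM here. Second listed promoters, not counted here, held other matches for Prdm9 (1 E2F-type and 2 STRA8-MEIOSIN type) and Syce2 (1 of each motif). For Prdm9 the second is the promoter at the annotated gene start. These are letter matches on either strand with no overlap counted between the motifs, and they are not binding sites. All 7 promoters with an E-box belonged to genes at 10 CPM or more, the class that held 21 of the 27 promoters. E2F-type letters occurred in all 3 level classes given below, of which the lower ones held only 5 promoters and 1 promoter. No link between motif and level was tested.

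The promoters below, written 5' to 3' on the gene's strand of GRCm38.p6 with the matches in capitals, belong to genes on which the values turn. Sycp3 had the lowest ratio with 2 E-boxes, Hormad1 was higher with FGF9, Tex12 held all 3 motifs, Sycp1 and Smc1b were the most abundant with and without a match, and Spata22 had a match and hardly any transcript.
Sycp3 (chr10:88459337-88459636, plus strand): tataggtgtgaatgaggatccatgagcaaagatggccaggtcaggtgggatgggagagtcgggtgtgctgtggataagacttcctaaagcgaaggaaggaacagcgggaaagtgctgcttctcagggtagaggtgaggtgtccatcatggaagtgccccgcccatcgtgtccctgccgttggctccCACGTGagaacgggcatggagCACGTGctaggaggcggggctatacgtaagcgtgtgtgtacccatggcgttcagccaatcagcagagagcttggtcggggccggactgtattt
Hormad1 (chr3:95559427-95559726, plus strand): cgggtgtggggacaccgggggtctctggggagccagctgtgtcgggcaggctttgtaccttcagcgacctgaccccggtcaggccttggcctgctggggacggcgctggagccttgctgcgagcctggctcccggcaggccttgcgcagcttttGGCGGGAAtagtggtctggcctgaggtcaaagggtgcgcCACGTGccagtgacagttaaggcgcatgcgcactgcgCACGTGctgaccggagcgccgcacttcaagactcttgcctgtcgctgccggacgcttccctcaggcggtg
Tex12 (chr9:50561219-50561518, minus strand): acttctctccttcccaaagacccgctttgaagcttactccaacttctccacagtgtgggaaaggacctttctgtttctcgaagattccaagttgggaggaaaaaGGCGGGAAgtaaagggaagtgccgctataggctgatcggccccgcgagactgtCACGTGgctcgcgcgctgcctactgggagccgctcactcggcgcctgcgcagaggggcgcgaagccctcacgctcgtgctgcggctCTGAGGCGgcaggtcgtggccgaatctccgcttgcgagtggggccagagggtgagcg
Sycp1 (chr3:102936051-102936350, minus strand): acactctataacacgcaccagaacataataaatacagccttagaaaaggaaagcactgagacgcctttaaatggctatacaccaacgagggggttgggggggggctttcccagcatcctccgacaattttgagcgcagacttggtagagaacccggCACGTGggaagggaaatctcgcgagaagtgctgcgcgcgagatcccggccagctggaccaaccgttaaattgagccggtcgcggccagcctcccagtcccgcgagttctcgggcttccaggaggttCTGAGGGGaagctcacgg
Smc1b (chr15:85131908-85132207, minus strand): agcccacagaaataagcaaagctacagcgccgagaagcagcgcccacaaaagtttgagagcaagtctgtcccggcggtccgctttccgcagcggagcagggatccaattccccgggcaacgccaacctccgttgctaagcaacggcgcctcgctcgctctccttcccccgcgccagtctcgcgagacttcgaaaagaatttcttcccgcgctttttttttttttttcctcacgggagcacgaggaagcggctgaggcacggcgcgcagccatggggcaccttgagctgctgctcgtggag
Spata22 (chr11:73329491-73329790, plus strand): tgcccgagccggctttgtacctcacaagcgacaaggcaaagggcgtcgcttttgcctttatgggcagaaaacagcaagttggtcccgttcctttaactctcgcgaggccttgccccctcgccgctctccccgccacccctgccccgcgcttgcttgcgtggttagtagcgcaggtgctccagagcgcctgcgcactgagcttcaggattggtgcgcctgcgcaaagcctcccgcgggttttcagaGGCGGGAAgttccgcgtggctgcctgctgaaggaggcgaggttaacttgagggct
Sycp3 and Hormad1 each hold a pair of E-boxes, and their ratios between the libraries are given below. Whether these letters bear on the ratios was not tested.

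Most of these genes were already transcribed in the cultured spermatogonia. By the mean of both libraries, 23 of 32 (71.9%) had at least 10 CPM, against 26.7% of all genes. A further 6 lay between 1 and 10 CPM (Prdm9, Meiob, Mei1, Msh4, Msh5 and Terb1), and 3 (9.38%, against 58.5% of all genes) lay under 1 CPM (Spo11, Spata22 and Majin). None of the 32 was without a UMI. The 32 genes together made up 2514 CPM in FGF9-treated and 2518 CPM in control cells.

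The synaptonemal complex was the most fully transcribed group, with all 7 genes over 60 CPM in both libraries. Sycp1, the transverse filament that spans the zipper, had 396 CPM in FGF9-treated and 410 CPM in control cells. Sycp3 (ENSMUSG00000020059, GRCm38 chr10:88459569-88473236, plus strand), which with Sycp2 forms the lateral elements, had 171.9 and 283 CPM, and Sycp2 had 83.1 and 84.2 CPM. Of the central element genes, Syce2 had 298 CPM in both libraries, Tex12 had 137 CPM in FGF9-treated and 146 CPM in control cells, Syce1 had 77.8 and 74.9 CPM, and Syce3 had 64.6 and 79.6 CPM. Parts of the lateral, transverse and central elements were therefore all represented in the RNA.

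Among genes of the chromosome axis, Smc1b (ENSMUSG00000022432, GRCm38 chr15:85064689-85131964, minus strand), the meiotic SMC subunit of cohesin, was the most abundant of all 32, with 545 CPM in FGF9-treated and 452 CPM in control cells. Its partner Stag3 had 79.7 and 97.2 CPM. The kleisin subunits that complete the cohesin ring were far lower, with Rad21l at 16.1 and 12.6 CPM and Rec8 at 12.2 and 8.11 CPM. Hormad1 and Hormad2, axis proteins that promote breaks and monitor pairing, had 77.7 and 52.2 CPM, and 25.4 and 22.5 CPM.

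The genes that cut and process DNA formed the low end. Spo11, the break enzyme, had 73 UMIs among 67068085 in FGF9-treated cells (1.09 CPM) and 46 among 67689739 in control cells (0.68 CPM). Prdm9, the methyltransferase that chooses break sites, had 2.62 and 3.44 CPM, and Mei1, needed for breaks, had 2.65 and 3.86 CPM. Rec114 was the exception among break genes with 78.6 and 78.8 CPM, while its partner Mei4 had 9.41 and 12.7 CPM. Dmc1, the meiotic strand exchange enzyme, had 12.5 and 8.54 CPM. Meiob and Spata22, partners that bind single-stranded DNA, had 1.70 and 1.86 CPM, and 0.48 and 0.71 CPM.

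Crossover genes spread over the range. Tex11, an X-linked recombination gene, had 105 CPM in FGF9-treated and 87.4 CPM in control cells, and Mlh3, a mismatch repair endonuclease subunit, had 34.4 and 38.9 CPM. The helicase gene Hfm1 (12.9 and 13.2 CPM) and the RING protein gene Rnf212 (11.2 and 12.8 CPM) lay near the limit of 10 CPM. Msh4 and Msh5, whose products form a dimer that stabilises crossover intermediates, had 6.14 and 5.91 CPM, and 5.25 and 4.79 CPM. Tex14, which keeps the bridges between sister germ cells open, had 182 and 175 CPM. Ythdc2 and Meioc, whose products bind RNA together and are needed for meiotic prophase, had 34.4 and 27.3 CPM, and 23.1 and 18.1 CPM. Terb1 and Majin, which tie telomeres to the nuclear envelope, had 4.20 and 2.81 CPM, and 0.92 and 0.41 CPM.

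**Figure D1:**
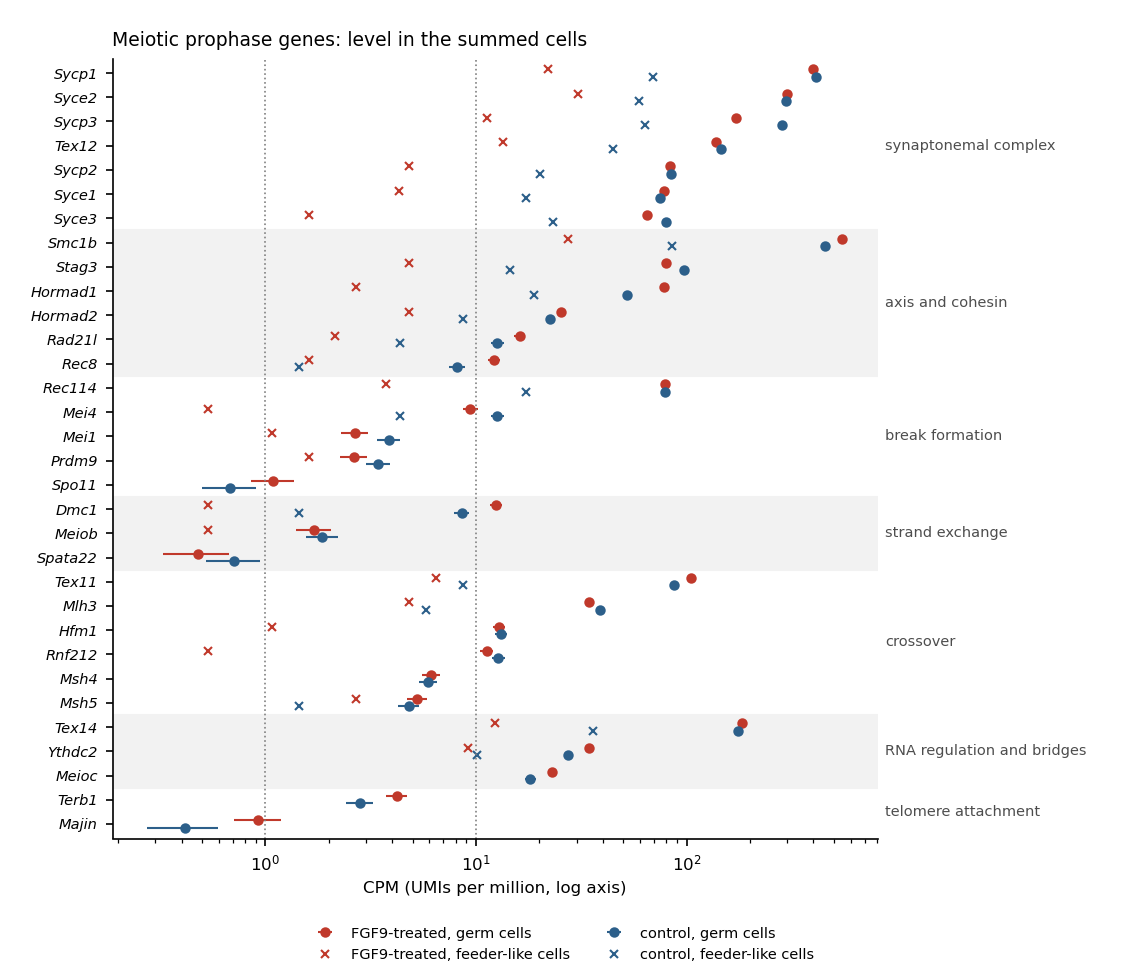
Level of each of the 32 genes in CPM on a log axis, by role, in FGF9-treated (red) and control (blue) germ cells (dots, with 95% Poisson intervals) and in the 63 and 31 feeder-like cells (crosses, left out where a gene had 0 UMIs); dotted lines mark 1 and 10 CPM. Genes of the synaptonemal complex and Smc1b lie at the right, and Spo11, Spata22 and Majin at the left.

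By point value, the transcribed genes were lower in feeder-like than in germ cells of both libraries. Sycp1 had 22.0 CPM in the feeder-like cells of the FGF9-treated library, 5.55% of its germ cell level, and 69.3 CPM in those of the control library, 16.9%. Dazl, a gene that fibroblasts should lack, had 5.59% and 15.6% of its germ cell level there. Its 190 and 187 UMIs were unevenly spread, found in 50.8% and 41.9% of unthinned feeder-like cells. Whether this background was free RNA or came from barcodes that also held a germ cell was not tested. For 22 of the 32 genes the germ cell level lay above the feeder-like level in both libraries by the counting interval. Mei4, Rad21l and Terb1 did so in FGF9-treated cells only. For Spo11, Prdm9, Meiob, Spata22, Mei1, Msh5 and Majin the interval took in 0 in both libraries, and the few feeder-like cells (3 UMIs there amount to 1.61 CPM in FGF9-treated and 4.33 CPM in control) cannot separate such levels from background. Ythdc2 had the highest feeder-like share among genes over 25 CPM, 26.5% and 37.1%. Meiob, Spata22 and Msh5 are uncertain for a further reason, since a gene on the same strand (Hagh, Gm49340 and Sapcd1) lies within 1000 bases of their 3' ends, and Gm49340 overlaps Spata22. Gene models on the same strand also overlap Mei4 (Gm37837 and Gm15896) and Rec114 (Gm20620), and others overlap Dmc1 (Gm27903), Hfm1 (Gm27527), Mlh3 (Mir6938) and Tex14 (11 models, among them Rnu1a1 and Gm11489), so reads there may be assigned to another model or to none.

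Apart from Vim and S100a6, which the cell filter used, the 6 other feeder genes summed to 14.6 CPM in the kept FGF9-treated and 23.8 CPM in the kept control cells, against 2239 and 2452 CPM in feeder-like cells. The 4 Sertoli genes summed to 10.4 and 7.74 CPM and the 4 Leydig genes to 5.08 and 4.37 CPM, with Cyp17a1 and Insl3 at 0 UMIs. Of 8 pachytene genes fixed as a list, 1 had at least 10 CPM, the TBP-like factor gene Tbpl1 (109 CPM in FGF9-treated and 112 CPM in control cells). Piwil1 stood at 3.35 and 3.13 CPM, the testis lactate dehydrogenase Ldhc at 7.57 and 6.88 CPM and the testis histone Hist1h1t at 2.30 and 3.41 CPM. The 7 spermatid genes summed to 11.3 CPM in FGF9-treated and 11.1 CPM in control cells, nearly all of it from the acrosome gene Spaca1 (9.68 and 9.63 CPM) and from Tnp1 (1.09 and 1.06 CPM).

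The transcripts were spread over nearly all cells. To compare cells at equal depth, 5000 UMIs were drawn from each, leaving out 22 shallower FGF9-treated and 16 control cells. A median of 7 of the 32 genes was found per thinned cell in both libraries. The central 90% of cells had 4 to 11 of them in each library, the highest cell had 16 in FGF9-treated and 15 in control, and 0 and 1 cells had none. Unthinned cells had a median of 12 and 13. The UMIs of the 32 genes summed to a median of 12 per thinned cell and to no more than 42 in any cell of either library. The variance of that sum was 2.01 times its mean in FGF9-treated and 1.76 times in control cells. The distribution of genes found had a single peak in each library.

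Genes differed in how evenly they were found. Smc1b was found in 83.3% of FGF9-treated and 80.8% of control thinned cells, Sycp1 in 82.0% and 84.1%, Syce2 in 73.3% and 75.7%, and Tex14 in 56.5% and 57.3%. Feeder-like cells, which are deeper (a median of 26481 and 20517 UMIs), were thinned in the same way and showed Smc1b in 11.1% and 22.6% and Sycp1 in 11.1% and 9.68%. At the other end, Dmc1 was found in 5.4% and 3.7% of cells, Prdm9 in 1.3% and 2.0% and Spo11 in 0.5% and 0.3%. The variance of Smc1b was 2.09 times its mean in FGF9-treated and 1.90 times in control thinned cells, against 1.41 and 1.31 for Sycp1, which has a like mean. For Hormad1 it was 1.29 and 1.13 at a far lower mean, and since this ratio grows with the mean the genes are not ranked by it. The highest correlation of any pair over cells was that of Hormad1 and Smc1b in FGF9-treated cells (Pearson r = 0.19 over 4515 thinned cells of 1 library), a description of cells that share depth and cell cycle.

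The comparison of the libraries asks how this later programme stood in cells given FGF9, the growth factor whose effect on spermatogonia the study addresses. As a sum the 32 genes were level: the ratio of their summed CPM, FGF9-treated over control, was -0.00 on the log2 scale (-0.01 to 0.01), and the median over the genes was 0.03, beside -0.04 over the 15317 genes tested. A gene was called where its interval left out 0 and its log2 ratio was at least 0.5 in size. Of the 32 genes, 6 were called higher (18.8%) and 2 lower (6.25%) in FGF9-treated cells. Over all genes tested 10.3% were called higher and 10.7% lower. With 32 genes and 1 library per treatment, these shares are a description and were not tested against each other. Without Sycp3 the sums were 2342 and 2235 CPM, a log2 ratio of 0.07.

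Sycp3 carried the largest difference in UMIs of the 32 genes. It had 11530 UMIs in FGF9-treated cells (171.9 CPM) and 19185 in control cells (283 CPM), a log2 ratio of -0.72 (-0.75 to -0.69), and 6.39% of all genes tested had a ratio as low or lower. In thinned cells it was found in 52.8% of FGF9-treated and 70.0% of control cells, with a mean of 0.84 and 1.40 UMIs per cell and no more than 9 and 8. Unthinned, the shares were 82.4% and 94.1%, and in thinned feeder-like cells 4.76% and 19.4%. The other genes of the same structure did not share the size of that ratio. Syce3 had a ratio of -0.30 (-0.36 to -0.24), Tex12 -0.09, Sycp1 -0.05, Sycp2 -0.02, Syce2 0.00 and Syce1 0.05. Sycp2, whose product binds SYCP3 in the lateral element, thus had nearly equal levels in both libraries. The study also sequenced bulk RNA of replicate cultures given the same dose of FGF9 for longer, with GDNF in the medium. There Sycp3 was nearly unchanged, slightly higher with FGF9 than without FGF, and the difference was not significant. The lower Sycp3 level seen here was therefore not found in those replicated data. Whether treatment time or medium accounts for this was not tested.

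Markers of the spermatogonial stages differed between the libraries beside Sycp3. The 6 stem cell genes of a marker list summed to 263 CPM in FGF9-treated and 88.8 CPM in control cells, and 6 genes of differentiating cells to 248 and 451 CPM. Gfra1, the GDNF co-receptor, had 58.6 and 16.5 CPM, and Kit 3.04 and 13.4 CPM. The Sycp3 ratio was as large within Kit-negative cells (171.5 and 281 CPM, log2 -0.71) as within Kit-positive cells (179.7 and 293 CPM, -0.70). Kit-negative cells were 4365 of the 4537 FGF9-treated and 3521 of the 4157 control cells, so their ratio must lie near that of all kept cells. The Sycp3 ratio was -0.71 in Gfra1-positive and -0.63 in Gfra1-negative cells. Over 15 strata of cells, by Stra8, Kit, Gfra1, KIT tag, cycling genes, mitochondrial share and depth, which were chosen after the data were seen, the ratio lay between -0.78 and -0.62. The strata overlap, since they cut the same cells in different ways. Strata set by a UMI of a low gene separate stages poorly, and the relation of the Sycp3 ratio to stage was not tested.

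**Figure D2:**
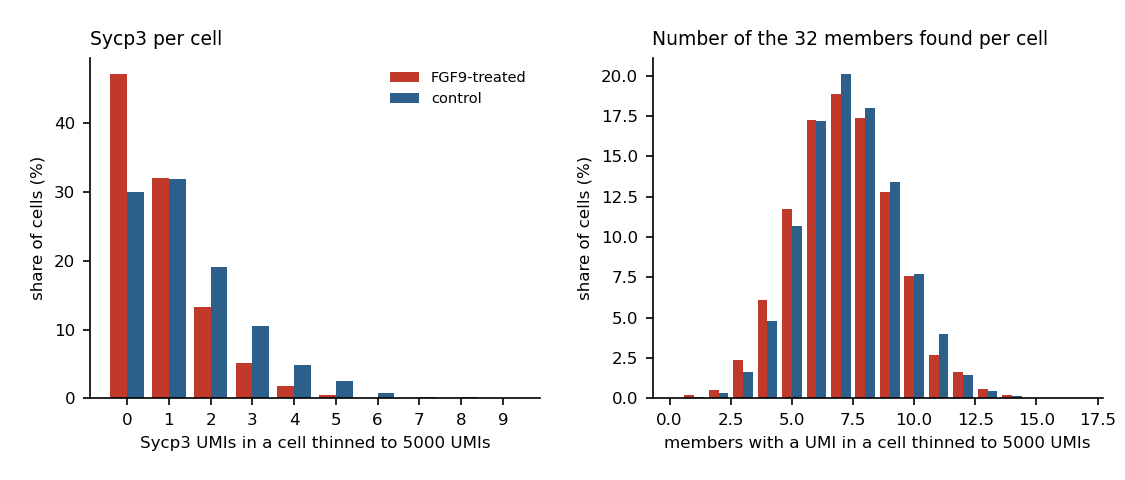
Share of cells thinned to 5000 UMIs by the number of Sycp3 UMIs (left) and by the number of the 32 genes found (right), in FGF9-treated (red, 4515 cells) and control (blue, 4141 cells). No Sycp3 UMI was found in 47.2% of FGF9-treated and 30.0% of control cells, while the distribution of genes found per cell centres on 7 in both.

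The genes called higher in FGF9-treated cells came from several roles. Hormad1 had a log2 ratio of 0.57 (0.51 to 0.63), Rec8 0.59 (0.43 to 0.75) and Dmc1 0.54 (0.39 to 0.70). The remaining 3 were low: Terb1 (0.58, 0.31 to 0.86), Spo11 (0.68, 0.13 to 1.24) and Majin (1.16, 0.49 to 1.86, on 62 and 28 UMIs). Mei1, the other gene called lower, had a ratio of -0.54 (-0.82 to -0.26) on 178 and 261 UMIs. With at most 10% mitochondrial UMIs, Mei1 (-0.28) and Spo11 (0.56) were no longer called and Spata22 was called lower (-1.13). With the mean of each cell's own CPM, Dmc1 (0.48) was no longer past 0.5. Spo11, Majin and Mei1 did not stand above the feeder-like level in either library.

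By role, the 6 axis and cohesin genes summed to 756 CPM in FGF9-treated and 645 CPM in control cells, a log2 ratio of 0.23 (0.21 to 0.25), with 2 called higher and 0 lower. Smc1b contributed most of this with a ratio of 0.27 (0.25 to 0.29), whereas Stag3 had -0.28. The 7 synaptonemal complex genes summed to 1229 and 1377 CPM (-0.16, -0.18 to -0.15), with 0 called higher and 1 lower. Crossover genes (0.10) and the genes of RNA regulation and bridges (0.12) had 0 calls, and all 3 of the last group had ratios above 0.

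Among the genes called higher, Hormad1 differed less in cells without transcripts of dividing cells, and Rec8 and Terb1 did not. Dmc1 had a smaller ratio there, with an interval that took in its ratio in all kept cells. Spo11 and Majin had fewer UMIs there than the 50 needed for a test. Mki67, a marker of cycling cells, had 156 CPM in FGF9-treated and 41.4 CPM in control cells, and Top2a, active in S and G2 phase, 349 and 161 CPM, although a UMI of either was found in similar shares of unthinned cells, 72.3% and 74.0%. Among the 1257 FGF9-treated and 1081 control cells without such a UMI, only Rec8 (14.0 and 7.77 CPM, log2 0.85, 0.51 to 1.20) and Terb1 (0.77) were called higher, 2 genes in place of 6. Over all genes, 1574 were called higher and 1635 lower in all kept cells, against 830 and 932 in these fewer cells. Spo11 had a ratio of 1.00 there, on 16 and 8 UMIs with an interval that took in 0 (-0.31 to 2.43), and Majin 0.42 on 4 and 3 UMIs. Hormad1 then had 55.0 and 50.4 CPM (0.13, -0.02 to 0.27), Dmc1 7.30 and 6.58 CPM (0.15, -0.27 to 0.57) and Smc1b 411 and 408 CPM (0.01, -0.04 to 0.07). Sycp3 had 173 and 276 CPM (-0.67, -0.74 to -0.60) and was still called lower, as was Msh5 (-0.61, -1.22 to -0.01), while Mei1 was not (-0.41, -1.11 to 0.27). These ratios of Hormad1 and Smc1b were thus present among cells with a cycling transcript and small among cells without one. The ratio of Dmc1 in cells without one was too uncertain to say. What part cell cycle phase or cell depth plays was not tested.

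Cells with and without such a UMI were also compared within each library, a contrast added after the data were seen, and the libraries gave different sizes of ratio. In FGF9-treated cells, Hormad1 had 83.8 CPM in cells with a Mki67 or Top2a UMI and 55.0 CPM in cells without (log2 0.61, 0.50 to 0.72), Smc1b had 581 and 411 CPM (0.50) and Tex11 had 114 and 69.1 CPM (0.73). Of 31 genes tested there, 6 were called higher and 0 lower, against 4.07% and 2.42% of all genes. In control cells the corresponding ratios were 0.06 for Hormad1, 0.19 for Smc1b and 0.29 for Tex11, with 1 of 29 genes called higher and 0 lower, against 1.38% and 1.31% of all genes. Meioc was called higher in both libraries (0.73 in FGF9-treated and 0.56 in control cells). Cells with such a UMI were deeper, with a median of 14248 against 10833 UMIs in FGF9-treated and 15551 against 12802 in control cells. Sycp3 differed little between these cells, at -0.01 in FGF9-treated and 0.05 in control.

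**Figure D3:**
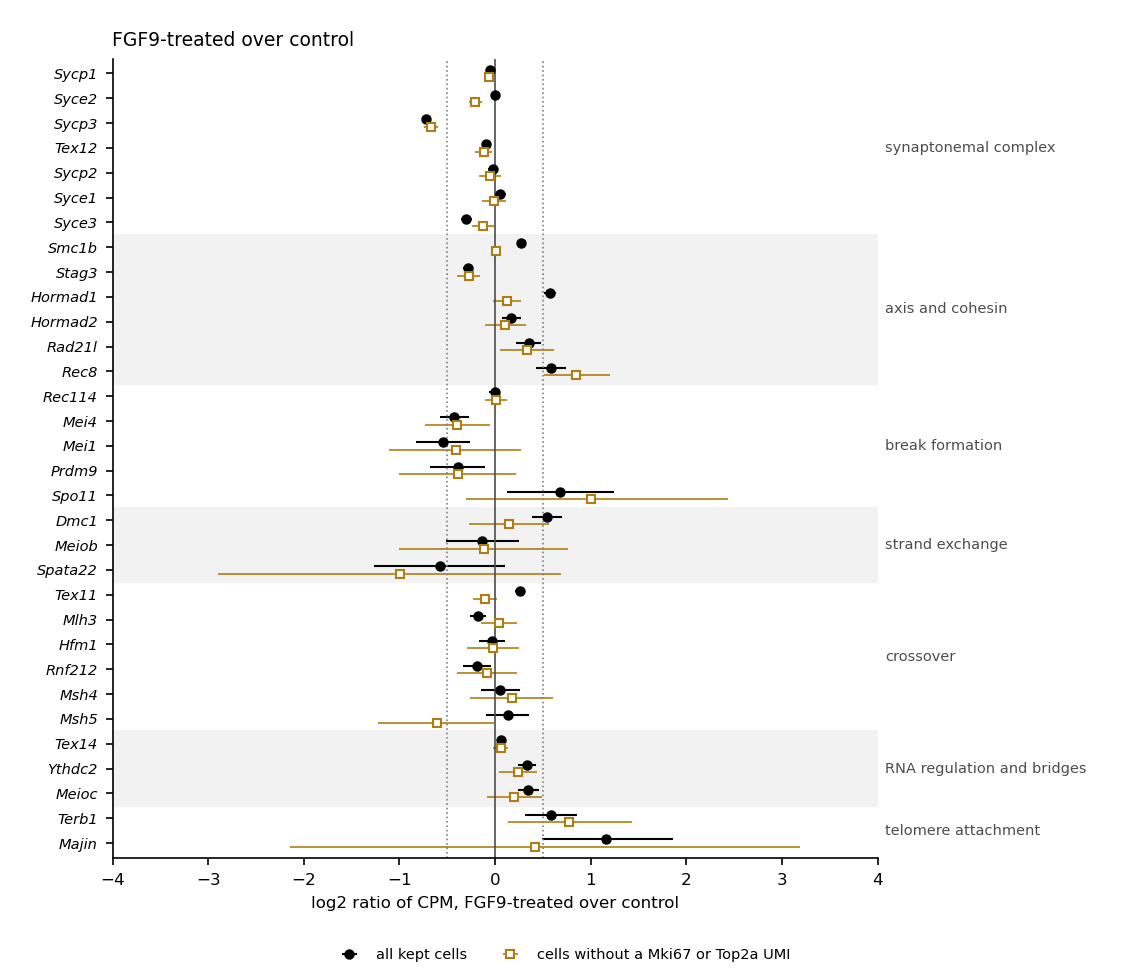
Log2 ratio of CPM, FGF9-treated over control, for each of the 32 genes with 95% counting intervals, in all kept cells (black dots) and in cells without a Mki67 or Top2a UMI (open squares); dotted lines mark 0.5 in size. Sycp3 lies near -0.7 in both, while Hormad1 and Smc1b move close to 0 in the cells without such a UMI. Dmc1 also has a smaller ratio in those cells, but its interval takes in the ratio in all kept cells.

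**Figure D4:**
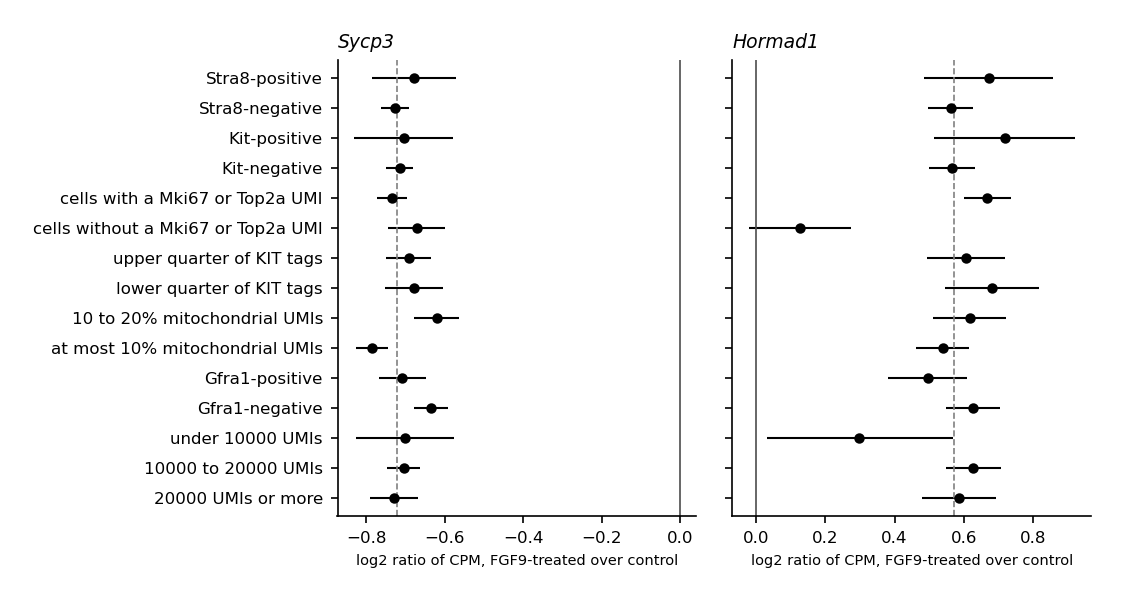
Log2 ratio of CPM, FGF9-treated over control, for Sycp3 (left) and Hormad1 (right) within 15 overlapping strata of cells, with 95% counting intervals; the dashed line is the ratio in all kept cells. Sycp3 stays between -0.78 and -0.62, and Hormad1 ranges from 0.13 in cells without a Mki67 or Top2a UMI to 0.72 in Kit-positive cells.

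The link to Stra8 and Kit was read within each library, by setting cells with at least 1 UMI of the gene against cells with none. Stra8 itself was low, at 5.79 CPM in FGF9-treated and 6.53 CPM in control cells, with 351 and 377 positive cells. At this level, and at that of Kit, a cell with no UMI may still hold the transcript. Positive and negative cells thus overlap, and small ratios between them cannot exclude a link. The summed level of the 32 genes was 2575 CPM in positive and 2508 CPM in negative FGF9-treated cells (log2 0.04, 0.02 to 0.06). In control cells the ratio of the sums was -0.07. In FGF9-treated cells 1 of 31 genes tested was called higher, Msh5 (0.52, 0.04 to 0.96), and 1 lower, Spo11, against 0.98% and 0.829% of all genes. In control cells 1 of 29 was called higher, Rec8 (0.52, 0.17 to 0.86), and 0 lower, against 1.87% and 1.08%. No gene was called in both libraries. Sycp3 had ratios of -0.01 and -0.06. Stra8-positive cells were deeper (a median of 15942 against 12879 UMIs in FGF9-treated and 16705 against 14672 in control cells), and more of them had a Mki67 or Top2a UMI (83.8% against 71.3%, and 85.1% against 72.9%).

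Kit-positive cells numbered 172 in the FGF9-treated and 636 in the control library. Of 31 FGF9-treated and 29 control genes tested, 0 were called higher, against 2.47% and 1.29% of all genes. The 32 genes summed to 2572 CPM in Kit-positive and 2511 CPM in Kit-negative FGF9-treated cells (log2 0.03, 0.00 to 0.07), and to 2637 and 2493 CPM in control cells (0.08, 0.06 to 0.10). Meiob was called lower in FGF9-treated cells, with 0 UMIs in Kit-positive cells, and 0 were called lower in control cells, against 1.7% and 0.944%. Smaller differences stood outside counting error in both libraries for Smc1b, Tex11 and Syce3, and in control cells for Stag3. Smc1b had a Kit-positive over Kit-negative ratio of 0.10 in FGF9-treated and 0.24 in control cells, Stag3 0.11 and 0.26, and Tex11 0.39 and 0.20, while Syce3 had -0.44 and -0.19. Sycp3 had 0.07 and 0.06. Mki67 was higher in Kit-positive cells of both libraries, by 0.96 and 1.11. Kit-positive cells were also deeper (a median of 16696 against 12967 UMIs in FGF9-treated and 16049 against 14585 in control cells). Kit-positive control cells had more Stra8 (9.11 against 5.98 CPM, log2 0.61, 0.28 to 0.93), and in FGF9-treated cells the interval took in 0 (0.33, -0.33 to 0.93).

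Only 17 FGF9-treated and 82 control cells had a UMI of both genes. Against cells with neither, Rec8 was called higher in FGF9-treated cells (1 of 30 tested, against 2.61% of all genes) and 0 of 29 genes in control cells (2.58%), with 0 lower in either against 1.27% and 2.37%. Cells were also split by KIT protein, the 25% with the most KIT tags against the 25% with the fewest. Here 0 of 29 genes were called in either direction in either library. Of all genes, 1.37% were called higher and 0.939% lower in FGF9-treated cells, and 1.29% and 1.7% in control cells. Sycp3 was somewhat higher in the cells with the most tags, by 0.24 in FGF9-treated and 0.25 in control cells, as Kit RNA itself was by 2.27 and 2.54. Between Kit-positive and Kit-negative cells the Sycp3 ratio was smaller, at 0.07 in FGF9-treated and 0.06 in control cells. Cells with the most tags were also deeper (a median of 15297 against 11687 UMIs in FGF9-treated and 16677 against 14229 in control cells).

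**Figure D5:**
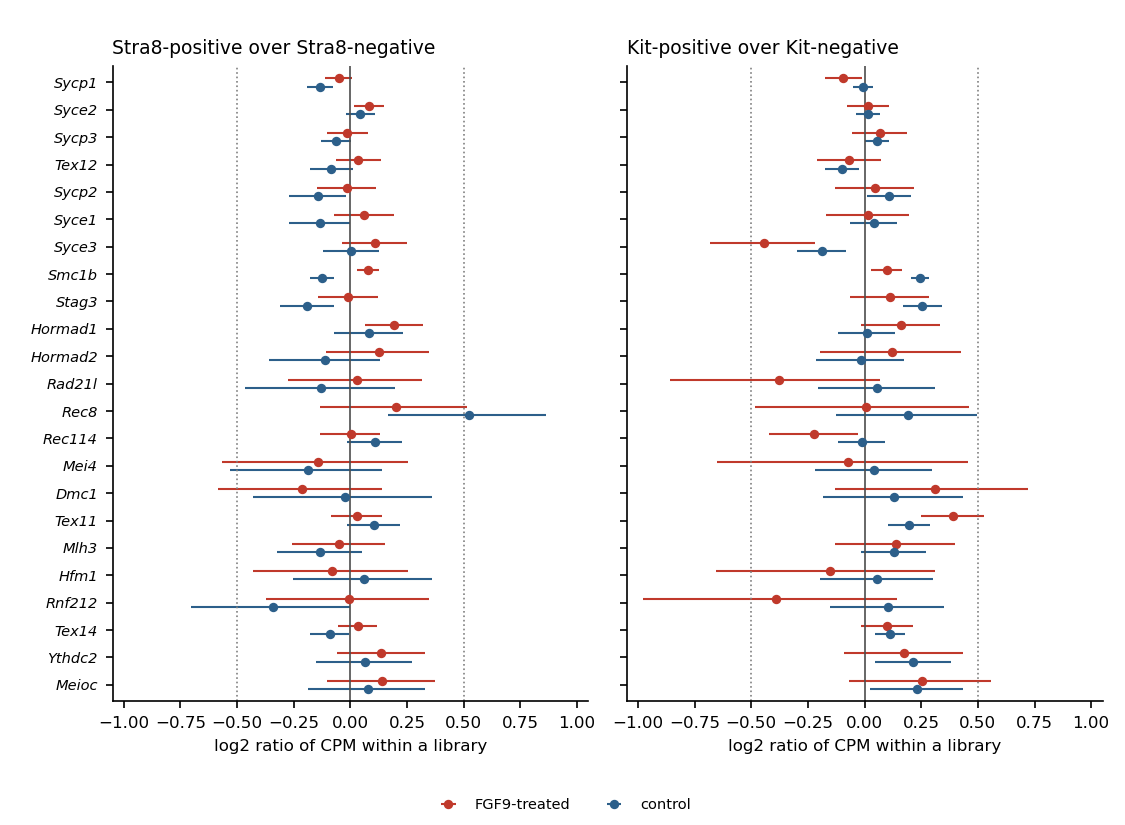
Log2 ratio of CPM within each library for the 23 genes with at least 10 CPM, Stra8-positive over Stra8-negative cells (left) and Kit-positive over Kit-negative cells (right), in FGF9-treated (red) and control (blue), with 95% counting intervals; dotted lines mark 0.5 in size. Rec8 in control Stra8-positive cells, at 0.52, is the only point past a dotted line.

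A wider list of 56 other meiotic names, 48 of them found as rows, was read in the same way. Of these, 35 had at least 10 CPM, a level that 26.7% of all genes reached. The list includes Dazl and Ddx4, used above as germ cell genes, so that count is not particular to meiosis. Of 47 tested, 2 were called higher and 3 lower in FGF9-treated cells, against 10.3% and 10.7% of all genes. The median ratio was -0.02. The most abundant were Dazl, given above, Tex15, needed for germ line silencing and repair (432 CPM in FGF9-treated and 571 CPM in control cells), and Ddx4. Brip1, a repair helicase gene (41.2 and 27.9 CPM, log2 0.56), and Rad51ap2 (3.47 and 2.16 CPM, 0.69) were the genes called higher. Mybl1, which encodes the A-MYB factor that drives pachytene transcription, had 5.73 and 12.8 CPM (-1.16, -1.34 to -0.98). Gm4969, the gene of MEIOSIN, had 1.97 and 3.32 CPM (-0.76) and Fbxo47 6.89 and 10.8 CPM (-0.64). In feeder-like cells Mybl1 had 27.4 CPM in the FGF9-treated and 13.0 CPM in the control library. By the counting interval, neither Mybl1 nor Gm4969 stood above the feeder-like level in either library. Brip1 and Fbxo47 did so in both libraries, and Rad51ap2 in FGF9-treated cells only.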

How the data were processed

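THY-1+ germ cells were encapsulated with a 3' single-cell kit with an antibody tag for KIT, 1 library per treatment. The deposited matrices hold raw UMI counts by gene and barcode. The authors deposited these counts as made by Cell Ranger (version 3.1.0 in the matrix header) with the mm10 genome. The study gives GENCODE vM23 as annotation. The labels name Seurat 3.1 for later steps, none of which enters the counts. Totals were 72669787 UMIs in the FGF9-treated and 71481926 in the control matrix. Coordinates are from GENCODE M21 (GRCm38, the same build), in which 32158 of 32285 gene identifiers and all 32 members were found.

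UMIs were summed over kept cells and scaled to CPM, with exact Poisson intervals. Log2 ratios have exact conditional binomial intervals and shares of cells exact Clopper-Pearson intervals, all at 95%. A gene was tested with at least 50 UMIs over both sums. Named were all 32 members, of the other meiotic list up to 3 with the highest level and up to 3 with the largest called ratio in each direction, and Stra8 and Kit. The members and lists were chosen with earlier results of these data known. Doublets were not called, and an alternative leaves out barcodes over 2.5 times the median UMIs. Of the kept barcodes, 10 occur in both libraries. Thinning used a fixed seed (7). The ratio step was tested on simulated data. Alternatives changed the cell filters, the scaling (edgeR 4.0.16 TMM and DESeq2 1.42.0 size factors, under R 4.3.3), the definition of positive cells and the thinning depth. Python 3.11.15, numpy 2.4.6, scipy 1.17.1 and matplotlib 3.10.9 were used.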

Additional observations from a re-analysis of the deposited data

How the results depend on the processing

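No paired analysis was possible because each treatment has 1 library and both carry replicate number 1. With no replicates, no result can be set against the spread between cultures, and every interval covers counting error only. Of 341 ratios of single members other than Sycp3 under the alternatives, 320 moved by less than their counting interval, 21 moved more and 0 changed sign past a call. The alternative without the minimum of 50 UMIs changes calls only, so its ratios could not move. The Sycp3 ratio was -0.78 with at most 10% mitochondrial UMIs and -0.67 in cells with no UMI of Mki67 or Top2a, and in those cells 2 members rather than 6 were called higher. Over all genes, 830 rather than 1574 were called higher in those cells. TMM scaling shifted the median of all genes from -0.04 to -0.00. The counts of called members in Stra8-positive and Kit-positive cells are small and changed with the definition. For all genes, only the share called higher was computed under these alternatives. For Stra8 in FGF9-treated cells, at least 2 UMIs gave 0 higher and 2 lower, thinned cells 2 higher and 0 lower, leaving out barcodes over 2.5 times the median 0 higher, and cells without Mki67 or Top2a UMIs 0 higher and 0 lower. Of all genes, 1.72%, 1.53%, 1.17% and 1.63% were called higher in these settings, in that order. For Stra8 in control cells, at least 2 UMIs and thinned cells each gave 0 higher, and cells without Mki67 or Top2a UMIs 2 lower. The shares of all genes called higher were 2.84%, 1.93% and 2.49%. For Kit in FGF9-treated cells, at least 2 UMIs gave 3 higher and 2 lower, thinned cells 1 higher and 0 lower, leaving out barcodes over 2.5 times the median 2 lower, and cells without Mki67 or Top2a UMIs 0 lower. In these settings 3.5%, 1.87%, 2.42% and 2.1% of all genes were called higher, in that order. For Kit in control cells, at least 2 UMIs gave 1 higher, thinned cells 2 and cells without Mki67 or Top2a UMIs 1. The shares of all genes called higher were 2.13%, 1.79% and 1.83%. Members found in at least 50% of cells numbered 5 in FGF9-treated and 6 in control thinned cells, and 13 and 12 in unthinned cells.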
